A study of Mus musculus with 4 samples.

Results

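The genes described here encode the synaptic vesicle and release machinery, and they were taken by symbol: the synaptotagmins, VAMPs, syntaxins, SNAP-25 family and AP180, synapsins, SV2 proteins, complexins, syntaxin-binding proteins and RIMs, together with Syp, Syngr1, Unc13a and Nsf. With 1 probe set per gene, the brightest on average over the 4 arrays, 65 of 18193 genes were members, and they were represented by 156 probe sets. RNA of the midbrain was compared between TRAP (translating ribosome affinity purification, replicates 2 and 4) and input (replicates 1 and 2), with each array made from a pool of 5 adult mice of both sexes, aged 6 to 12 weeks. All mice carried the Slc6a3 JD1640 TRAP transgene, a bacterial artificial chromosome in which the dopamine transporter gene drives a ribosomal protein RPL10A fused to eGFP. The TRAP RNA is the RNA captured with the tagged ribosomes, and the input RNA is that of the whole midbrain, named unbound in the sample labels. The transgene marks cells by Slc6a3 activity, and RNA carried over from untagged cells is not distinguished from theirs on an array.

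Neurons release transmitter when a vesicle SNARE (a VAMP) and the plasma membrane SNAREs (a syntaxin and SNAP-25) zip together and fuse the membranes. Synaptotagmins sense the calcium that enters with the action potential, complexins hold the partly zipped SNAREs ready, and RIM and Munc13 proteins dock and prime vesicles at the active zone. Dopamine neurons release from axonal varicosities and also from their cell bodies and dendrites, and they package dopamine through the vesicular monoamine transporter.

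Levels are given in arbitrary expression units, which are 2 raised to the deposited log2 value, and values of an array pair are listed in the order of the replicate numbers. Background was set at 50 units, which 35.2% to 35.8% of the probe sets reached on each array. The purification was checked on Th, the enzyme that turns tyrosine into the precursor of dopamine. It was at 16613 and 20947 units in TRAP and 326 and 386 units in input, and Slc6a3 was at 37882 and 41149 units in TRAP and 4856 and 5824 units in input. Of 10 dopamine neuron markers 9 averaged 50 units or more, and all 9 were higher in TRAP, with a median log2 fold change of 4.89. That median is the measured difference of Foxa2, at least 15.3-fold higher with input below background. En1 was below background in input too, so the size of the median is not well measured. The medians were -1.23 for 12 oligodendrocyte markers, -1.53 for 10 astrocyte markers, -1.10 for 8 GABAergic neuron markers and 0.39 for 16 pan-neuronal genes. In such bulk samples, fewer cells that express a gene and less RNA per cell cannot be told apart. The methods say that an input fraction was taken alongside each purification, so input replicate 2 is the one that shares a number with a TRAP array used here. Since 2 arrays against 2 cannot give an exact permutation p below 0.333, all p-values below are from limma across 45037 probe sets with Benjamini-Hochberg adjustment.

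Of the 65 members, 50 averaged 50 units or more over the 4 arrays. Among these 8 were higher in TRAP than in input at an adjusted p under 0.05 from limma, namely Syt3, Syt11, Syt13, Syt17, Stx3, Syngr1, Rims4 and Stxbp4, and 2 were lower, Syn3 and Stxbp5l. That is 16.0% and 4% of the members, beside 17.7% and 5.34% of all 9507 genes at this level, so the shares of the members were near those of all genes. Both TRAP arrays lay above both input arrays for 32 members (64.0%, beside 52.4% of all genes) and below both for 8 (16.0%, beside 22.0%). The median log2 fold change was 0.65 for the members, with quartiles at 0.13 and 1.18, and 0.44 for all genes, with quartiles at -0.28 and 1.11. In single pairs of a TRAP and an input array, the members' median ran from 0.52 to 0.72. The values ran from -1.76 for Stxbp5l to 2.61 for Syt17, with Syt3 left aside because its input arrays were below background.
Centring each array on its bright probe sets shifted the median of all genes by -0.41, to 0.03, and that of the members to 0.24. Then 12 members were called higher (24.0%, beside 20.3% of all genes) and 9 lower (18.0%, beside 19.5%). Cplx1, Cplx2, Stx12, Syt5, Syt16 and Vamp2 joined the higher ones, Syt11 and Stxbp4 left them, and Rims2, Stx4a, Stx17, Stxbp6, Syn2, Syt2 and Vamp3 joined the lower ones. The sign changed for Nsf, Stx6, Stx16, Stxbp3, Stxbp4, Sv2a and Syt7, so the direction is not settled for these. That holds for Stxbp4 too, although it is counted among the members called higher. Quantile normalization also turned the sign of Stx1a. Leaving out an array leaves 1 array in its fraction, and the spread then comes from the other fraction alone, so the remaining array is assumed to vary like those. Without TRAP replicate 4 fewer were called higher, both among the members and over all probe sets, and the members' median log2 fold change was 0.63. Without input replicate 1 or input replicate 2 fewer were called lower, again in both, and that median was 0.61.

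**Figure D1:**
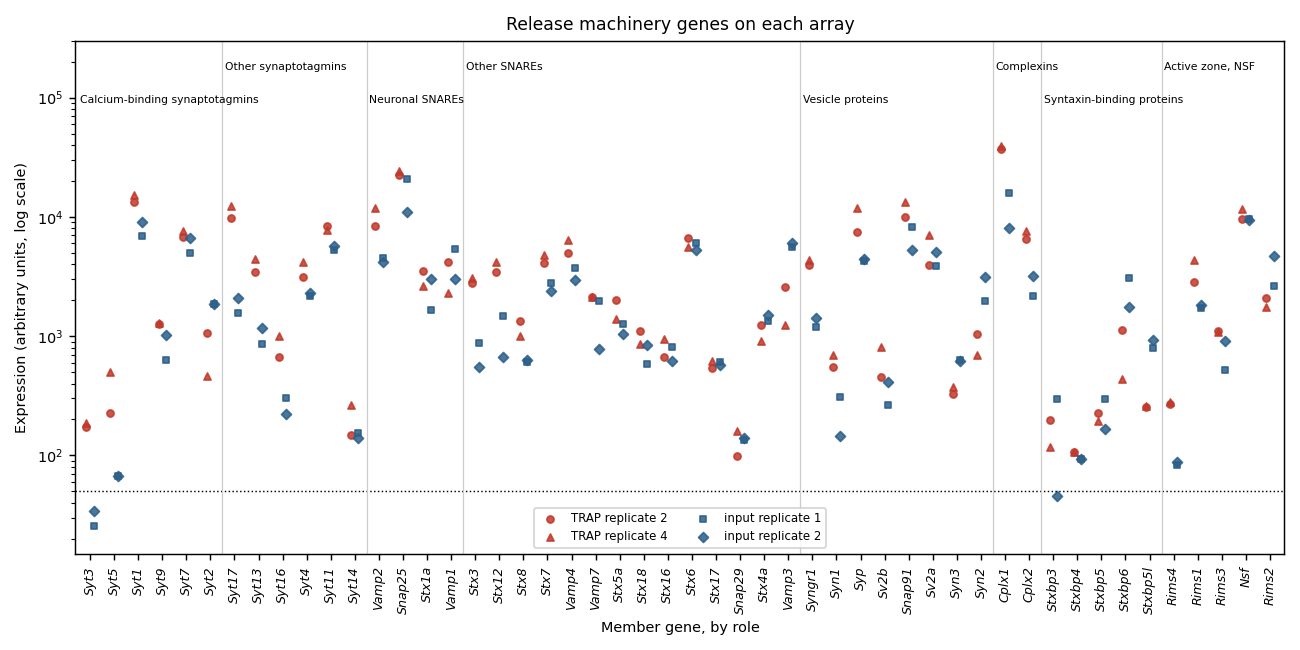
Expression in arbitrary units (log scale) of the 50 members that averaged 50 units or more, grouped by role, with the TRAP arrays in red left of the input arrays in blue and the dotted line at 50 units. The arrays of Syt17 stand at 9791 and 12395 units in TRAP and at 1564 and 2083 units in input, without overlap, while those of Stx17 and Nsf lie close together.

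**Figure D2:**
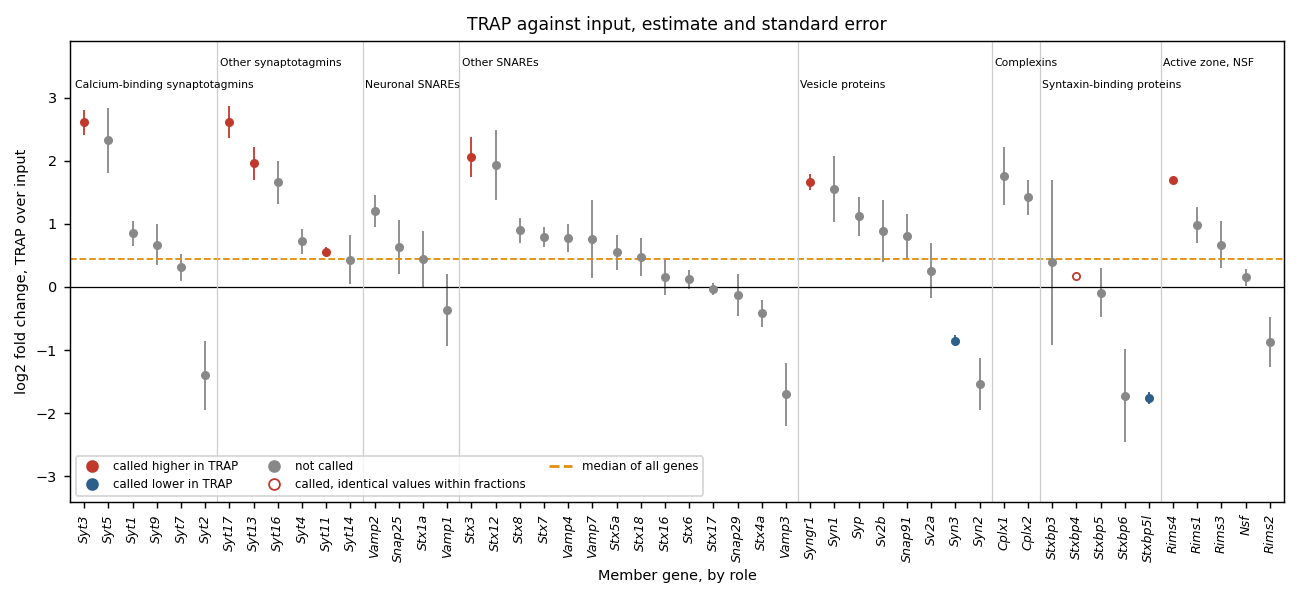
Fold change (log2, TRAP over input) with its standard error from limma for the same members, ordered by size within each role. Red points were called higher and blue points lower, the open point (Stxbp4) was called on identical values within each fraction, and the dashed line is the median of all genes at 0.44. Syt3 is drawn at its measured difference, with input below background.

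The 120 bases before the RefSeq transcription start (GRCm38.p6) are shown for 4 of the called members, chosen to set genes that were higher in TRAP beside Stxbp5l, which was lower. Stx3 was called higher on the probe set used and lower on a second probe set, so its direction is not settled. Capitals mark GC boxes (GGGCGG, either strand) and TATA motifs (TATAAA, either strand).
Syt3 (chr7:44384006-44384125, plus strand): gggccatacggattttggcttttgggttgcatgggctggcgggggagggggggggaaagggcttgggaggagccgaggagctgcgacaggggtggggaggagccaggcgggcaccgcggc
Syngr1 (chr15:80091214-80091333, plus strand): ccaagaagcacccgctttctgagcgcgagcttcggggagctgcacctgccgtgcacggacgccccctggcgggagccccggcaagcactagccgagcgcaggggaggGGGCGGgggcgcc
Stx3 (chr19:11819404-11819523, minus strand): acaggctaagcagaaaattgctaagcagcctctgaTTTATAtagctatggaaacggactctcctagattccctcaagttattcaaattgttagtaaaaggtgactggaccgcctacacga
Stxbp5l (chr16:37384959-37385078, minus strand): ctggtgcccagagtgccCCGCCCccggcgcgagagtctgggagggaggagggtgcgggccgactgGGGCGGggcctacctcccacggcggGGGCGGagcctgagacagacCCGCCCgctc
These stretches differ in base composition, with 70.8% G and C for Syt3, 75% for Syngr1, 41.7% for Stx3 and 78.3% for Stxbp5l, beside a median of 67.5% over 66 promoters of 51 members and 54.2% over all 32851 promoters. In the 250 bases before the start, a GC box stood in 57.6% of the members' promoters and 32.7% of all promoters, and a TATA motif in 6.06% and 12.4%. The cAMP response element (TGACGTCA) stood in 2 members' promoters (those of Syn1 and Stxbp3), or 3.03%, beside 1.55% of all promoters, and an E box (CACGTG) in 13.6%, beside 6.02%. The binding motif of the dopamine neuron factor Nr4a2 (AAAGGTCA) stood in 0, beside 1.34% of all promoters. These matches describe letters in a window and were not set against the fold changes.

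Of 16 synaptotagmins measured, 12 averaged 50 units or more, and 4 of these were called higher and 0 lower, beside 17.7% and 5.34% of all genes. TRAP lay above input without overlap for 10 of the 12, beside 52.4% of all genes.
Syt17, an atypical synaptotagmin without a membrane anchor, was at 9791 and 12395 units in TRAP, against 1564 and 2083 units in input. The fractions did not overlap, and the log2 fold change was 2.61 (SE, the standard error, 0.25, limma adjusted p = 0.0158), or 6.10-fold. Only 1.98% of all genes at this level had a log2 fold change as high. Syt17 is also on a list of enriched genes that the study drew from these samples, so its rise is not an independent observation. Its second probe set, at 1088 and 1440 units in TRAP and 17.5 and 51.9 units in input, was called higher too (limma adjusted p = 0.0318), and since only 1 of its input arrays reached background the size of that difference is not well measured. The call on the brighter probe set was lost without any 1 of the 4 arrays (adjusted p from 0.0638 to 0.115), with log2 fold changes between 2.40 and 2.82.
Syt3, a synaptotagmin that binds calcium with high affinity, was at 173 and 186 units in TRAP and below background in input (25.3 and 34.0 units), which is at least 3.58-fold higher (limma adjusted p = 0.0107). It averaged over 50 units through its TRAP arrays, and it lost its call when TRAP replicate 2 (0.106) or 4 (0.112) was left out. Syt13, which lacks the calcium-binding residues, was at 3430 and 4432 units in TRAP, against 860 and 1160 units in input. Its log2 fold change was 1.96 (SE 0.26, limma adjusted p = 0.0294), and the call was lost without any 1 of the 4 arrays. It was also lost after quantile normalization, with values under 50 units raised to 50 and on averaging probe sets. The second Syt13 probe set was at 238 and 183 units in TRAP and 84.7 and 149 units in input. That set was not called (log2 fold change 0.89, SE 0.42, limma adjusted p = 0.194).
Syt11, a synaptotagmin with no calcium binding in its first C2 domain, was at 8341 and 7724 units in TRAP and 5254 and 5703 units in input, a small rise on this scale (log2 fold change 0.55, SE 0.08, limma adjusted p = 0.0302). After centring its log2 fold change was 0.14 (adjusted p = 0.363), and leaving out any 1 array ended the call (0.0966 to 0.130).

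The calcium sensors of fast release gave a mixed pattern that did not pass the test on the probe sets used. Syt1, the main fast sensor of forebrain synapses, was at 13334 and 15311 units in TRAP and 6957 and 9036 units in input (log2 fold change 0.85, SE 0.20, limma adjusted p = 0.076). A dimmer Syt1 probe set was called higher, at 179 and 252 units in TRAP and below background in input. That is at least 4.25-fold higher (limma adjusted p = 0.0131). Another Syt1 set was at least 7.11-fold higher but not called (limma adjusted p = 0.073). Syt2, the fast sensor of many brainstem and GABAergic synapses, had a negative value, at 1057 and 467 units in TRAP and 1866 and 1843 units in input (log2 fold change -1.40, SE 0.55, limma adjusted p = 0.149). The arrays of neither gene overlapped between the fractions, but the TRAP arrays of Syt2 lay 1.18 log2 units apart. Without TRAP replicate 2 Syt2 had a log2 fold change of -1.99 (adjusted p = 0.00626), and without TRAP replicate 4 of -0.81 (0.0152), with the spread taken from the nearly equal input arrays alone.
Syt9, a further fast sensor, was at 1274 and 1292 units in TRAP and 633 and 1026 units in input, and Syt7, the sensor of slow and asynchronous release, at 6789 and 7579 units in TRAP and 4996 and 6701 units in input. Their log2 fold changes of 0.67 and 0.31 were not called. Syt5, a calcium-binding synaptotagmin, was at 229 and 500 units in TRAP, against 67.6 units on both input arrays (log2 fold change 2.32, SE 0.52, limma adjusted p = 0.072), and only 3.46% of all genes had a log2 fold change as high. The input arrays hold the same value, and leaving out either TRAP array gave 0.00126 and 0.00134 with the spread taken from that pair alone, which is not informative.
Among the other synaptotagmins, Syt16 was at 674 and 1001 units in TRAP and 305 and 222 units in input (log2 fold change 1.66, SE 0.34, limma adjusted p = 0.0608). Syt4, which resembles Syt11 in its first C2 domain, was at 3158 and 4219 units in TRAP and 2153 and 2294 units in input (log2 fold change 0.72, limma adjusted p = 0.0864). Both were without overlap. Syt14 overlapped between the fractions.

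None of the 4 neuronal SNAREs was called on the probe set used for it, beside 17.7% of all genes called higher and 5.34% lower. Vamp2, the main vesicle SNARE of the forebrain, was at 8336 and 11968 units in TRAP and 4476 and 4204 units in input, without overlap (log2 fold change 1.20, SE 0.25, limma adjusted p = 0.061). Its other probe set was at 606 and 463 units in TRAP and 62.5 and 50.1 units in input, with a log2 fold change of 3.24 (SE 0.23, limma adjusted p = 0.00931). Vamp1, its close relative, overlapped: 4218 and 2310 units in TRAP, against 5394 and 2987 units in input (log2 fold change -0.36, SE 0.57).
Snap25, a plasma membrane SNARE, was at 22444 and 24261 units in TRAP and 20744 and 10958 units in input (log2 fold change 0.63, SE 0.43, limma adjusted p = 0.316). The TRAP arrays lay above both input arrays, yet the input arrays differed from each other by more than the TRAP arrays did from the brighter of them. Stx1a, its syntaxin partner, was at 3502 and 2626 units in TRAP and 1648 and 3021 units in input, with overlap (log2 fold change 0.44, SE 0.45). The other Stx1a probe set was at 268 and 331 units in TRAP and 49.6 and 73.5 units in input. It was called higher (log2 fold change 2.30, SE 0.30, limma adjusted p = 0.0276), with 1 of its input arrays at background or more.

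The complexins that were above background were both higher on every TRAP array, though neither passed. Cplx1 was at 37378 and 39547 units in TRAP and 15915 and 8079 units in input (log2 fold change 1.76, SE 0.46, limma adjusted p = 0.0852). It was among the brightest probe sets in TRAP, where the part of probe saturation was not tested, with 0.0600% and 0.0378% of all probe sets at or above it in TRAP and 0.351% and 1.07% in input. Its second probe set gave 30483 and 28989 units in TRAP and 14513 and 13134 units in input, a log2 fold change of 1.11 (SE 0.07, limma adjusted p = 0.00832). Cplx2 was at 6477 and 7573 units in TRAP and 2153 and 3196 units in input (log2 fold change 1.42, SE 0.28, limma adjusted p = 0.0593). When an input array was left out, the spread of the probe set used for Cplx1 came from the close TRAP arrays alone, and its adjusted p was 0.0169 without input replicate 1 and 0.0322 without input replicate 2. Cplx3 and Cplx4, the complexins of retinal ribbon synapses, were below background on all 4 arrays.

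The broadly expressed SNAREs of the plasma membrane, endosomes and Golgi had 14 of 20 genes above background. Of these, 1 was called higher and 0 lower, beside 17.7% and 5.34% of all genes. Their median log2 fold change was 0.51, beside 0.44 for all genes. Stx3, the syntaxin of ribbon synapses and of membrane insertion in dendrites, was at 2783 and 3047 units in TRAP and 882 and 553 units in input (log2 fold change 2.06, SE 0.32, limma adjusted p = 0.0379), or 4.17-fold. A second Stx3 probe set gave the opposite result, at 102 and 107 units in TRAP and 533 and 391 units in input (log2 fold change -2.13, SE 0.21, limma adjusted p = 0.017). Both sets were free of overlap, so the direction for Stx3 depends on the probe set. The mean of all its probe sets, some of them below background on all 4 arrays, had a log2 fold change of -0.30. Leaving out TRAP replicate 2 or 4 ended the call on the brighter set (0.170 and 0.185).
Stx12, the syntaxin of recycling endosomes, was at 3463 and 4206 units in TRAP and 1487 and 670 units in input (log2 fold change 1.93, SE 0.55, limma adjusted p = 0.0898), and its second probe set was called higher, with a log2 fold change of 1.21 (SE 0.11, limma adjusted p = 0.0136). Stx7 and Stx8, which act at late endosomes, and Vamp4, of the trans-Golgi network, were above input on both TRAP arrays. Stx7 was at 4077 and 4832 units in TRAP and 2781 and 2370 units in input (log2 fold change 0.79, limma adjusted p = 0.0578), and Vamp4 at 5013 and 6337 units in TRAP and 3697 and 2941 units in input (log2 fold change 0.77, limma adjusted p = 0.0894). Stx6, also of the trans-Golgi network, was level, at 6709 and 5611 units in TRAP and 6002 and 5302 units in input (log2 fold change 0.12).
Vamp3, the broadly expressed relative of Vamp2 that is also present in glia, was at 2599 and 1233 units in TRAP and 5638 and 6037 units in input, without overlap (log2 fold change -1.70, SE 0.50, limma adjusted p = 0.0952). It had the most negative value among the 14. With the spread of the input arrays alone, its log2 fold change was -2.24 without TRAP replicate 2 (adjusted p = 0.0296) and -1.17 without TRAP replicate 4 (0.0581).

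Vesicle membrane and vesicle-associated proteins had 8 of 9 genes above background, with 1 called higher and 1 lower, beside 17.7% and 5.34% of all genes. Syngr1, a vesicle protein with 4 membrane spans, was at 3913 and 4322 units in TRAP and 1197 and 1409 units in input (log2 fold change 1.66, SE 0.13, limma adjusted p = 0.0106), or 3.17-fold, and lost its call when TRAP replicate 2 (0.0915) or 4 (0.101) was left out. Syp, the related synaptophysin, was at 7509 and 11970 units in TRAP and 4279 and 4448 units in input (log2 fold change 1.12, SE 0.31, limma adjusted p = 0.0876).
The synapsins, which tether vesicles in the reserve pool, had values on both sides of 0. Syn3 was at 324 and 371 units in TRAP and 634 and 614 units in input (log2 fold change -0.85, SE 0.09, limma adjusted p = 0.0206). The call was lost when input replicate 1 or input replicate 2 was left out. It was also lost in a fit of probe sets above background only, with values under 50 units raised to 50 and on averaging probe sets. The other Syn3 probe set above background was not called (log2 fold change -0.70, SE 0.33, limma adjusted p = 0.194). Syn2 was at 1040 and 698 units in TRAP and 1959 and 3146 units in input (log2 fold change -1.54, SE 0.41, limma adjusted p = 0.0852). All 4 of its probe sets above background had negative values, from -1.59 to -0.98, and 1 of them was called lower (limma adjusted p = 0.0293). Syn1 was at 551 and 700 units in TRAP and 308 and 146 units in input (log2 fold change 1.55, SE 0.52, limma adjusted p = 0.119). Each synapsin was without overlap, Syn1 above input and Syn2 and Syn3 below it. The differences between these fold changes were not tested.
Snap91, which encodes the clathrin adaptor AP180, was at 9939 and 13279 units in TRAP and 8256 and 5300 units in input (log2 fold change 0.80, SE 0.35). Sv2a, the SV2 protein found on most vesicles, overlapped between the fractions, at 3946 and 7073 units in TRAP and 3855 and 5043 units in input, with a log2 fold change of 0.26 (SE 0.43). Sv2b had a log2 fold change of 0.88 (SE 0.49). Sv2c, the SV2 protein of the basal ganglia, averaged less than 50 units and was not counted: it was at 38.3 and 154 units in TRAP and 4.86 units on both input arrays, so 1 of the 4 arrays carried a level above background.

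Among the syntaxin-binding proteins 5 of 6 were above background, and their median log2 fold change was -0.09. Stxbp5l (tomosyn 2, which like tomosyn holds SNAREs in an unproductive complex) was at 252 and 258 units in TRAP and 801 and 935 units in input (log2 fold change -1.76, SE 0.10, limma adjusted p = 0.0065), a 3.39-fold lower level. Its second probe set was lower too, with a log2 fold change of -2.56 (SE 0.21, limma adjusted p = 0.0119). The call was lost without TRAP replicate 2 (0.0861) or TRAP replicate 4 (0.0858), while the log2 fold change stayed between -1.87 and -1.65 without any 1 array.
Stxbp6 (amisyn, a further SNARE-binding inhibitor) was at 1126 and 435 units in TRAP and 3064 and 1740 units in input, without overlap (log2 fold change -1.72, SE 0.74, limma adjusted p = 0.172). Stxbp5, which encodes tomosyn itself, overlapped, at 226 and 194 units in TRAP and 296 and 168 units in input. Its other probe sets lay on both sides of 0, at 0.83 (called higher, limma adjusted p = 0.00577) and -1.40 (not called). Stxbp3 (Munc18c, of general secretion) overlapped as well, and its input arrays stood at 296 and 45.2 units. Stxbp4 (Synip, known from insulin-stimulated glucose transport) passed the test on a difference of 0.18 log2 units, with 106 units on both TRAP arrays and 94.0 units on both input arrays. Such identical values show no spread between pools, so its p is not informative. Its second probe set had a log2 fold change of -0.49 and was called lower (limma adjusted p = 0.0405). After centring the first stood at -0.23. Without probe sets of this kind 7 of 49 members were called higher (14.3%, beside 17.6% of all genes) and 2 lower (4.08%, beside 5.26%).

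The RIMs, the scaffolds of the active zone, had values on both sides of 0. Rims4, a short RIM that keeps only the last C2 domain, was at 271 and 279 units in TRAP and 82.3 and 88.2 units in input (log2 fold change 1.69, SE 0.05, limma adjusted p = 0.00174), or 3.23-fold. Its second probe set was called higher too (limma adjusted p = 0.0227), with 1 of its input arrays at background or more. Rims4 was the only called member that passed under each of the alternatives tried, with adjusted p up to 0.0412. Rims1, a full-length RIM, was at 2834 and 4324 units in TRAP and 1730 and 1823 units in input (log2 fold change 0.98, SE 0.29, limma adjusted p = 0.0935), and its other probe set was called higher, at 1.44 (SE 0.15, limma adjusted p = 0.0187). Rims2, the second full-length RIM, was at 2097 and 1770 units in TRAP and 2638 and 4670 units in input (log2 fold change -0.87, SE 0.40, limma adjusted p = 0.190), and the 3 of its 5 probe sets above background lay between -0.87 and -0.70. Rims3, the other short RIM, had a log2 fold change of 0.67 (SE 0.37).
Nsf, the ATPase that takes SNARE complexes apart after fusion, was at 9583 and 11567 units in TRAP and 9579 and 9374 units in input (log2 fold change 0.15, SE 0.13). Its second probe set was at 1344 and 1789 units in TRAP and 769 and 488 units in input, without overlap. That set was not called (log2 fold change 1.34, SE 0.36, limma adjusted p = 0.0852), so the sizes of the sets differed. Unc13a, which encodes the priming factor Munc13-1, averaged less than 50 units, at 52.4 and 58.8 units in TRAP and 17.1 and 31.8 units in input.

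Of 15 that averaged less than 50 units, 10 were below it on all 4 arrays, Snap23, Syt6, Syt8, Syt10, Syt12, Stx11, Stx19 and Stxbp2 among them. The other 5 reached 50 units on at least 1 array, namely Sv2c and Unc13a in TRAP and Stx2, Vamp5 and Vamp8 in input. Vamp8, an endosomal SNARE of secretory and immune cells, was at 12.8 and 8.06 units in TRAP and 73.4 and 99.5 units in input, at least 1.71-fold lower. Stx2 was at 25.2 and 21.2 units in TRAP and 64.7 and 78.6 units in input, at least 1.43-fold lower. The nearest members on either side of the limit were Vamp5, with a geometric mean of 40.6 units, and Syt3, with 72.5 units.

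Most genes with several probe sets gave the same sign on each. Of 30 members with more than 1 probe set at 50 units or more, 25 had all of them on 1 side of 0. The exceptions were Stx3, Stx17, Stxbp4, Stxbp5 and Syt7. The sizes agreed less well. The third Cplx1 set was at 351 and 684 units in TRAP and below background in input, at least 9.80-fold higher (limma adjusted p = 0.0163), and the dimmest Syt11 set was at 248 and 244 units in TRAP and below background in input, at least 4.92-fold higher (0.0157). The probe set used was of a type that can detect further transcripts (suffix x or s) for 8 of the 50 members, with Syt11, Vamp3, Syn3 and Cplx2 among them.

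**Figure D3:**
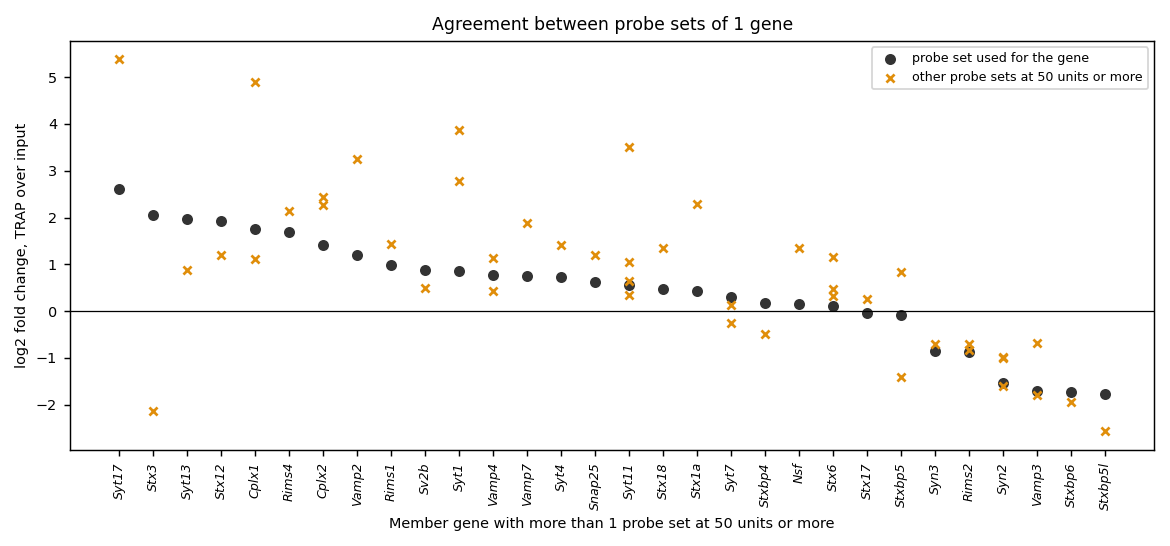
Fold change (log2, TRAP over input) for the 30 members with more than 1 probe set at 50 units or more. Black circles are the probe sets used for the gene and orange crosses the others, all drawn at the measured difference, which is not a bound where input was below background. The sets of Stx3 stand at 2.06 and -2.13.

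The TRAP arrays differed from each other in markers of other cells, and 3 members were higher by more than 1 log2 unit on the array where those were higher. Oligodendrocyte markers were higher on TRAP replicate 2 than on TRAP replicate 4 for 11 of 12 genes (median difference 1.47 log2 units), GABAergic markers for 7 of 8 (1.44) and astrocyte markers for 9 of 10 (0.83). Summed over all 13 oligodendrocyte markers measured, the level was 85755 and 37816 units in TRAP and 106447 and 105994 units in input, and that of 11 astrocyte markers 27732 and 15819 units in TRAP and 45638 and 53203 units in input. GABAergic markers summed to 11806 and 6598 units in TRAP and 18119 and 10892 units in input. The members as a whole ran slightly the other way, with a median of -0.14 and 17 of 50 higher on TRAP replicate 2.
Only 4 members differed by more than 1 log2 unit between the TRAP arrays (8.0%, beside 6.37% of all genes). Stxbp6 (1.37), Syt2 (1.18) and Vamp3 (1.08) were higher on TRAP replicate 2, and Syt5 (-1.13) on TRAP replicate 4. On both TRAP arrays, Stxbp6, Syt2 and Vamp3 also lay below input. The part of the other cells' RNA in their levels was not tested. Between the input arrays, Stx12, Stxbp3, Syn1 and Vamp7 differed by more than 1 log2 unit.

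**Figure D4:**
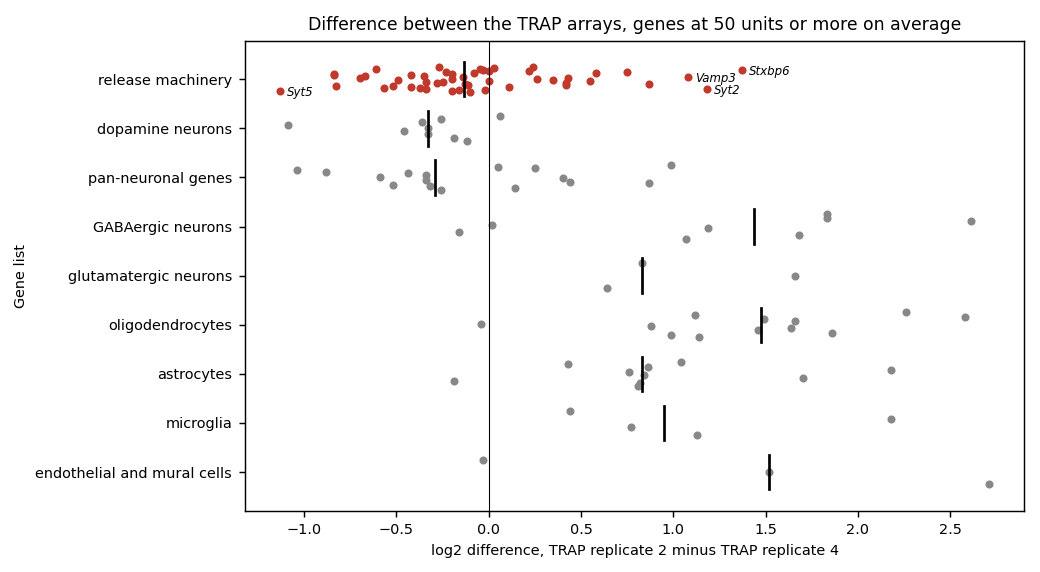
Log2 difference of TRAP replicate 2 minus TRAP replicate 4 for the 50 members (red) and for marker genes at 50 units or more on average (grey), with the median of each list as a bar. The members centre at -0.14, while oligodendrocyte and GABAergic markers centre at 1.47 and 1.44.

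Release and recycling genes outside the symbol rule were counted in the same way. Of 60 measured, 55 averaged 50 units or more, 10 were called higher and 3 lower, beside 17.7% and 5.34% of all genes, and their median log2 fold change was 0.55, beside 0.44. These counts are near those of all genes. Among active zone scaffolds and priming factors, 3 of 13 were higher and 2 lower. Cadps2, a priming factor for dense-core and monoamine vesicles, was at 11099 and 14234 units in TRAP and 1737 and 1960 units in input (log2 fold change 2.77, SE 0.19, limma adjusted p = 0.00814), and Erc2, the ELKS scaffold of the active zone, at 10821 and 13737 units in TRAP and 3004 and 2252 units in input (log2 fold change 2.23, SE 0.25, limma adjusted p = 0.0214). Ppfia4, a liprin, rose by 1.40 on the log2 scale (limma adjusted p = 0.000819). Unc13c, the Munc13 of cerebellar neurons, was lower (log2 fold change -1.56, SE 0.19, limma adjusted p = 0.0243), as was Unc13b (-0.76, limma adjusted p = 0.0374).
Of 9 Rab3 partners and calcium-triggered effectors, 1 was higher, Rabac1 (log2 fold change 2.77, SE 0.29, limma adjusted p = 0.0185). Rab3c and Rab3a, the vesicle GTPases, had log2 fold changes of 1.56 and 0.34 and were not called. Of 9 further vesicle membrane proteins 2 were higher, Svop (2.35, limma adjusted p = 0.0167) and Vat1l (1.5, limma adjusted p = 0.0138), while Syngr3, the relative of Syngr1 that binds the dopamine transporter, was at 2870 and 5561 units in TRAP and 662 and 871 units in input (log2 fold change 2.39, SE 0.48, limma adjusted p = 0.059).
In the endocytic list 3 of 18 were higher, also near the share of all genes. They were Ap2m1 (log2 fold change 1.56, limma adjusted p = 0.00359), Ap2s1 (2.16, limma adjusted p = 0.0391) and Cltb (1.80, limma adjusted p = 0.00728), of the clathrin coat and its adaptor, while Clta (0.68), Cltc (0.27), Ap2a1 (0.66), Ap2a2 (0.78) and Ap2b1 (0.63) of the same complexes were not called. Bin1, an amphiphysin also made by oligodendrocytes, was lower (-0.48, limma adjusted p = 0.0324). The attachment proteins of Nsf (Napa, Napb and Napg) had 0 of 3 called. Of the vesicular transporters Slc18a2, which loads dopamine, was at 7947 and 16938 units in TRAP and 418 and 226 units in input (log2 fold change 5.24, SE 0.65, limma adjusted p = 0.0259). Slc17a6, the glutamate transporter of midbrain neurons, was at 3022 and 1942 units in TRAP and 7106 and 6544 units in input (log2 fold change -1.49, limma adjusted p = 0.0597), and Slc32a1, the GABA transporter, overlapped. Without input replicate 1, 6 of these genes were called higher and 0 were called lower. Leaving out TRAP replicate 4 gave 6 and 1.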

How the data were processed

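RNA was hybridised to Affymetrix mouse expression arrays after linear amplification of small amounts, 2 arrays per fraction. The authors processed the arrays with GCRMA (version not given in the sources used here), so each deposited value is a log2 signal of 1 probe set. Of 45101 probe sets, 64 controls were left out of the fit. The platform annotation gives 34945 of the 45037 tested 1 gene symbol, 932 several and 9160 none, and all 65 members matched RefSeq by gene identifier.
TRAP was compared with input in limma 3.58.1 (R 4.3.3; 1 coefficient for the fraction, empirical Bayes, two-sided), with Benjamini-Hochberg adjustment over all probe sets and a threshold of 0.05. A gene was counted where its mean log2 value over the 4 arrays was at least that of 50 units, because 15551 probe sets hold identical values within both fractions and only 37 of them reach this level. The prior had 0.317 degrees of freedom beside 2 residual ones. Where both arrays of a fraction were below 50 units, the bound on the fold sets that fraction to 50 units. The number of arrays limits the precision. The fit was tested on simulated data for probe sets averaging 50 units or more, without identical values, so such values were not covered. The reported fit ran over all 45037 tested probe sets, so its prior and its adjustment were not covered either.
The members and gene lists were chosen with earlier results of these data known. Genes named are the called members, the brightest of each role up to 4, up to 10 uncalled members without overlap and with a log2 fold change of at least 1 in size, called and bright genes of the pathway lists, and Th and Slc6a3. Sv2c, Unc13a, Vamp8, Stx2 and further members given in short were added after their values were seen. Alternatives were quantile normalization, centring on bright probe sets, a fit of probe sets above background only, a floor of 50 units, a prior that follows intensity, control probe sets kept, a background of 100 units, a filter on either fraction, no filter, averaging each gene's probe sets and each array left out. Leaving out probe sets with identical values was added after seeing the data.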

Additional observations from a re-analysis of the deposited data

How the results depend on the processing

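Over all probe sets 2799 were called higher in TRAP and 940 lower. An intensity trend gave 3896 and 1350. Quantile normalization gave 1782 and 1453, raising values under 50 units to 50 gave 677 and 280, no filter on level gave 8539 and 11760, centring on bright probe sets gave 3071 lower, and a filter on either fraction gave 1559 lower. Leaving out 1 array gave 1090 to 2368 higher and 538 to 833 lower.
For the members, with 8 higher and 2 lower, quantile normalization gave 4 higher, raised values 3 higher and 1 lower, an intensity trend 14 higher, centring 9 lower, a filter on either fraction 4 lower, no filter 6 lower, and averaging each gene's probe sets 13 higher and 1 lower. Leaving out 1 array gave 5 to 9 higher and 1 to 3 lower. Their median log2 fold change of 0.65 was 0.20 after quantile normalization, 0.24 after centring, 0.44 without a filter and 0.79 on averaging probe sets, and 0.61 to 0.68 without 1 array. For the pathway genes, with 10 higher and 3 lower, raised values gave 3 and 0, an intensity trend 16 higher and centring 8 lower. Without 1 array 6 to 7 were higher and 0 to 2 lower.
The sign turned for Stx3 on averaging probe sets (-0.30), and for Stxbp4 on averaging (-0.49) and after centring (-0.23). Each mean takes in all 4 probe sets of the gene, some of them below background on all 4 arrays. Centring shifts the log2 fold change of every gene alike. With raised values 6 of the 10 called members missed the threshold, with adjusted p up to 0.141 from limma. No paired analysis was possible because the fractions share only 1 replicate number.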
